A study of Mus musculus with 234 samples.

Results

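Collagen chain genes were taken as the rows of the count matrix whose symbol is Col, a number, the letter a and a number, and 44 rows matched. A count in at least 1 cell was found for 38 of them, out of 23664 features with a count, and these 38 genes are described here. The other 6 rows (Col2a1, Col6a5, Col8a2, Col9a1, Col9a3 and Col11a1) were at 0 in every cell. The 38 genes held 125336 counts, 0.0767% of all counts in the matrix.

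The data are SMART-seq2 libraries of single cardiomyocytes (CMs), each picked by hand into 1 well of a plate after enzymatic perfusion of the mouse heart. The study asked how a mutated human BAG3, a co-chaperone of the muscle Z-disc, changes transcription in CMs that carry it. Libraries came from 5 mice, named here as in the labels (Mouse_26 and so on), and the mouse is the replicate, since cells of 1 mouse are not independent animals.

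The control cells came from Mouse_26 (24 cells) and Mouse_73 (9 cells), with the strain label C57BL/6, and the study's methods describe controls as siblings that were wild type or carried either PGK-Cre or the floxed transgene alone. The homozygous cells, labelled PGKcre:BAG3P209L_homo, came from Mouse_25 (21 bright and 18 dim cells) and Mouse_116 (59 bright and 50 dim cells). The heterozygous cells, labelled PGKcre:BAG3P209L_het, came from Mouse_72 alone (27 bright and 26 dim cells). In these animals the CAG promoter in the Rosa26 locus drives human BAG3 with the P209L change fused to eGFP once PGK-Cre, which is active in the germ line, has removed a stop cassette. Bright and dim are the submitters' classes of eGFP fluorescence of the single CMs. The line came from 1 embryonic stem cell clone, its background is a mix of CD-1, C57BL/6Ncr and 129S6/SvEvTac, and the study's single CMs were taken at 2 weeks of age, whereas no age is given for Mouse_72.

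Collagens are secreted proteins whose chains wind around each other into a helix, and each chain is encoded by its own gene. Fibril-forming collagens (types I, III and V) make the interstitial fibres of the heart and are made mainly by fibroblasts, type IV chains form the sheet-like network of the basement membranes that surround each CM and each capillary, and type VI forms beaded filaments next to the basement membrane. Col4a1 and Col4a2 are neighbouring genes read in opposite directions from a shared promoter region, and their products assemble into the same molecule.

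Cell totals ran from 487 to 1392253 counts with a median of 711527, and 15 wells held fewer than 1000 detected genes. The human BAG3 feature was at 0.408 and 0.488 CPM (counts scaled to 1000000 per library) in the summed control cells, at 294 and 233 CPM in the homozygous bright cells of Mouse_25 and Mouse_116 and at 10.7 and 99.6 CPM in their dim cells. In Mouse_72 it went against the labels, with 105 CPM in the cells labelled bright and 251 CPM in those labelled dim. The 10 CM markers (among them Myh6, Tnnt2 and Ryr2) were all detected in each of the 8 sums of cells by mouse and brightness. Well C8 of plate GL-9122b, labelled homozygous bright of Mouse_25, stood apart from the others. Its CM markers summed to 646 CPM, the lowest of the 219 wells with at least 1000 genes, against a median of 96029 CPM and 2158 CPM in the next lowest well. The same well held 27946 counts of the 9 fibroblast markers, 59.6% of all such counts in the matrix, together with 737 counts of the human BAG3 feature. The main levels and tests that include it are therefore also given without it.

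The promoter windows of the chains on which the results turn are shown so that the neighbouring pair can be seen beside a type IV chain from another chromosome and the leading fibril-forming chains with a window in the table. Sequences are RefSeq windows of GRCm38.p6, 250 bases before to 50 bases after the start site, written in the direction of the gene, and capitals mark matches on either strand to a CCAAT box (CCAAT or ATTGG), a GC box (GGGCGG or CCGCCC) or a TATA box (TATAAA or TTTATA). The windows lie at chr8:11312777-11313076 on the minus strand for Col4a1, chr8:11312555-11312854 on the plus strand for Col4a2, chrX:141475169-141475468 on the plus strand for Col4a5, chr6:4505368-4505667 on the plus strand for Col1a2 and chr1:45311288-45311587 on the plus strand for Col3a1.
Col4a1: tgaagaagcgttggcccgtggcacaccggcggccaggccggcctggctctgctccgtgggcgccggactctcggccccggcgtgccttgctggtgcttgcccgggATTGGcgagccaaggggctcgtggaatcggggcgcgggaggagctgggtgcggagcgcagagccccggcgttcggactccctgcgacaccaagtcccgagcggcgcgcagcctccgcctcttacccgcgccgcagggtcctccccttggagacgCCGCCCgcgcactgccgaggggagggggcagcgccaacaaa
Col4a2: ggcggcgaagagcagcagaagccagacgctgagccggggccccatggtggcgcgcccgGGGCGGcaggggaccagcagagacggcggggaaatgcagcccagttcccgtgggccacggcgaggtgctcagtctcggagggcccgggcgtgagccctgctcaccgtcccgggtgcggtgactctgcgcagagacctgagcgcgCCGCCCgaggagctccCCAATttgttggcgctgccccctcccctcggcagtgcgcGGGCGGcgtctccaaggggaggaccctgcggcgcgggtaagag
Col4a5: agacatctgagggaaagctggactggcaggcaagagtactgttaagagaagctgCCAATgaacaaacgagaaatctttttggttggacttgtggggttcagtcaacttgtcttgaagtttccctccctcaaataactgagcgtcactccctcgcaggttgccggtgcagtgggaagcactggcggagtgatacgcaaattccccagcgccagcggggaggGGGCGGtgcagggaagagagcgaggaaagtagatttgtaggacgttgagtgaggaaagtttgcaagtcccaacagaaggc
Col1a2: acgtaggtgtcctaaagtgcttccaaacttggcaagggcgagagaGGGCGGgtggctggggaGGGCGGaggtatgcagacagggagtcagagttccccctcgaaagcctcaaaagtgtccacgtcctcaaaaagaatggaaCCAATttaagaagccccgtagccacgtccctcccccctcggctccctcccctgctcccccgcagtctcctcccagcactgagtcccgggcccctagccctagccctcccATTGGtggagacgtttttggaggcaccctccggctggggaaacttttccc
Col3a1: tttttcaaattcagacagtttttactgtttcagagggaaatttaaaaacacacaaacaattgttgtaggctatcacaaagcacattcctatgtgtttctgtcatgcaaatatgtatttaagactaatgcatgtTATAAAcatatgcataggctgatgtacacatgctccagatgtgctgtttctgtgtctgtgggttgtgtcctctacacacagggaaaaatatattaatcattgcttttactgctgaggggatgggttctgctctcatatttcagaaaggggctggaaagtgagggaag
The Col4a1 and Col4a2 windows share 78 bases, read on opposite strands, and their start sites are 21 bases apart. Their GC content was 74.0% and 73.7%, against a median of 52.7% over all 32851 windows of the table. A CCAAT box matched in 37.4% of all windows, and in Col4a1, Col4a2 and Col4a5 once each and in Col1a2 at 2 places. A GC box matched in 35.7% of all windows, in Col4a2 at 3 places, in Col1a2 at 2 and in Col4a1 and Col4a5 at 1, whereas Col3a1 held neither of these letters and 1 TATA box, a match present in 13.6% of all windows. These are matches of letters and not measured binding sites.

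Counts of most chains sat in few wells, whereas those of 3 basement membrane chains were spread over most CMs. A chain was called spread if at least 20% of wells held a count and its highest well held under 20% of its counts, and concentrated if 1 well held at least 50%. By these rules 3 of the 38 chains were spread (Col4a1, Col4a2 and Col4a5), 26 were concentrated and 9 were neither. Among the 20 chains with at least 100 counts, 3 were spread and 12 concentrated, whereas of the 12979 features with at least 100 counts 63.5% were spread and 4.65% concentrated. The 18 chains with fewer than 100 counts were found in 1 to 9 wells each, and so few counts limit the number of wells that can hold one. Without well C8 the spread chains numbered 5, with Col3a1 and Col1a2 added, and 17 chains were concentrated. Of the 17 chains that keep at least 100 counts without C8, 5 were spread and 1 concentrated (Col8a1), against 64.7% and 3.57% of the 12916 features that do. Without the cells of Mouse_25 the same chains were added, both close to the cutoffs. Col1a2 was then in 20% of wells with 19.3% in its highest well, and Col3a1 in 21.5% with 19.2%. In that setting 16 chains were concentrated, of which only Col8a1 held at least 100 counts.

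**Figure D1:**
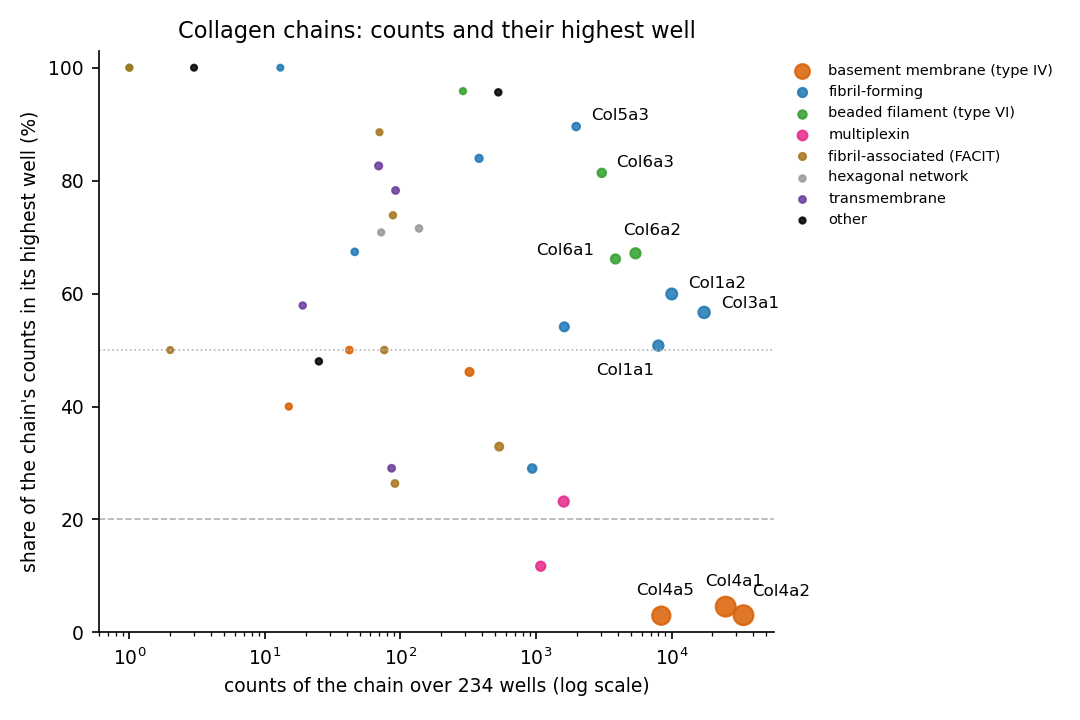
Each point is 1 of the 38 collagen chains, placed by its counts over all wells (x, log scale) and by the share of those counts in its highest well (y, percent); the point area grows with the share of wells that hold a count, colours give the structural class, and the dashed and dotted lines mark 20% and 50%. The named chains are the 10 with the most counts: Col4a1, Col4a2 and Col4a5 lie under 5% and the other 7 at 50.8% or more.

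By structural class, the 6 type IV chains held 67780 counts (54.1% of all collagen counts), the 9 detected fibril-forming chains 40360 (32.2%) and the 5 detected type VI chains 12619 (10.1%). The multiplexins Col15a1 and Col18a1, chains with a heparan or chondroitin sulphate side chain that sit in basement membrane zones, held 2684 counts (2.14%). The 7 detected fibril-associated, 4 transmembrane, 2 hexagonal network and 3 unclassed chains each made up under 1% of the counts, at 863, 266, 209 and 555 counts. A collagen count was present in 227 wells, 50% of the collagen counts came from 13 wells and 90% from 123 wells.

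Col4a1, Col4a2 and Col4a5 together held 67400 counts (53.8%), with 50% of them in 48 wells and 2.98% in the highest well. The other 35 chains held 57936 counts in 141 wells, and well C8 alone held 57.0% of these, followed by 6.28% in the next well, and 13 wells held 90%. Without C8 the other chains kept 24896 counts, of which the highest well held 14.6%, 6 wells 50% and 25 wells 90%. Of all wells, 93 held no count of these 35 chains, 69 held 1 to 9, 38 held 10 to 99 and 34 held at least 100.

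**Figure D2:**
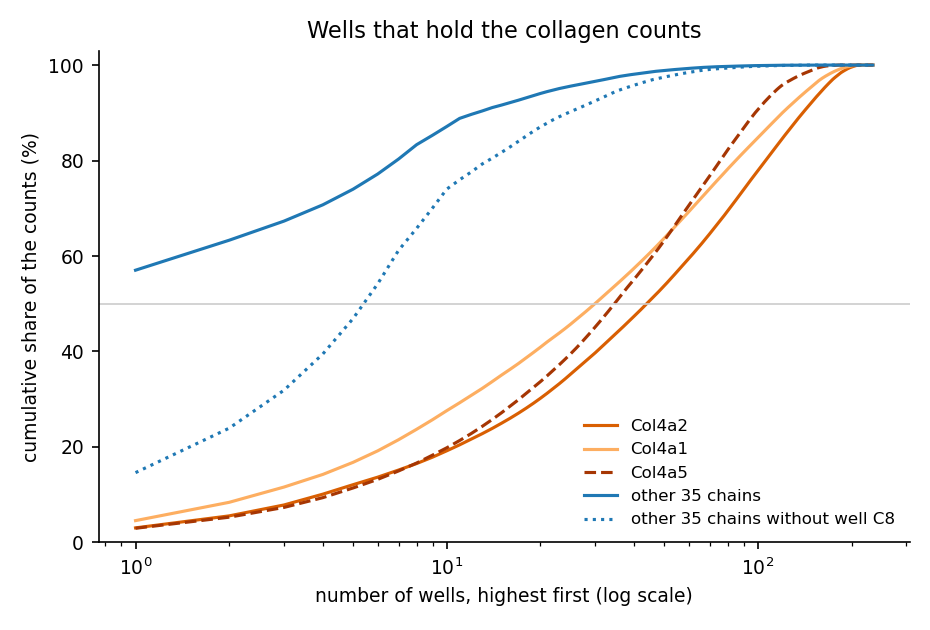
Cumulative share of the counts (y, percent) over wells ordered from the highest (x, number of wells, log scale), for Col4a1, Col4a2, Col4a5 and the sum of the other 35 chains with and without well C8; the grey line marks 50%. The 3 type IV chains reach 50% at 30, 44 and 35 wells, the other chains at 1 well, or at 6 wells without C8.

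Wells with many counts of the other chains also held marker transcripts of other heart cells. Of the 34 wells with at least 100 counts of the 35 chains, 23 held at least 100 counts of the fibroblast markers, 22 of the endothelial markers and 18 of the markers of mural cells (pericytes and smooth muscle) without Acta2, and 32 held at least 100 of at least 1 of these lists. Acta2 was left out of the mural list after its values were seen, because 225 wells held it. Across all wells, 31 held at least 100 counts of the fibroblast markers, 45 of the endothelial and 24 of the mural markers. The number of all wells with at least 100 of at least 1 list was not counted.

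The single wells at the top differed in this. Well C8 held 34262 collagen counts (4.03% of its counts) with Dcn, a fibroblast proteoglycan, at 16185 counts, Pdgfra, a fibroblast receptor, at 1225 and 8 of 9 fibroblast markers detected. Of the 9 endothelial markers, 8 were at 0 in C8 and Eng held 779 counts. The well next in order, E8 of plate GL9989-2 (homozygous dim, Mouse_116), held 3640 counts of the other chains and 2409 of the fibroblast markers, and its CM markers stood at 96366 CPM, close to the median well. In control animal Mouse_26, well B10 held 1892 counts of the other chains beside 1869 fibroblast and 1722 endothelial marker counts, and it was also the highest well of Col4a1, at 1146 counts. The part that RNA or fragments of other cells has in these counts was not tested.

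**Figure D3:**
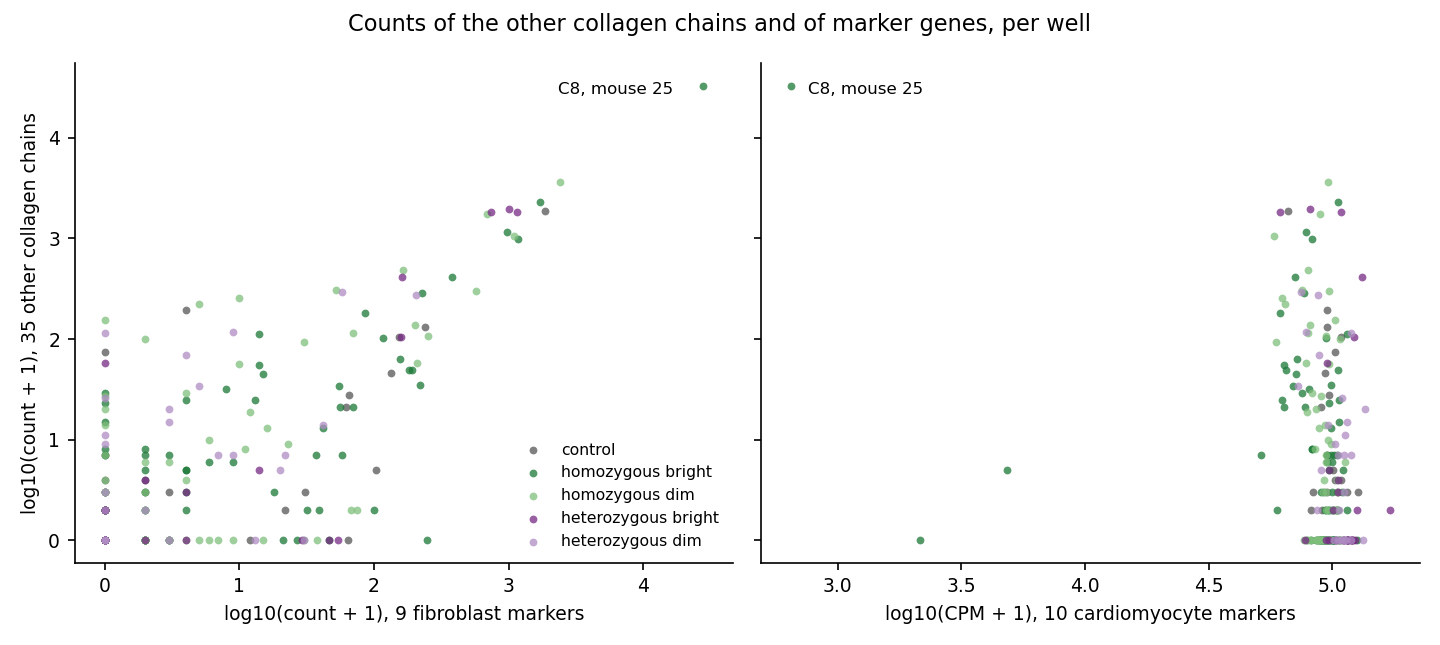
Each point is 1 well, coloured by group; y is log10(count + 1) summed over the 35 chains other than Col4a1, Col4a2 and Col4a5, and x is log10(count + 1) over 9 fibroblast markers (left) or log10(CPM + 1) over 10 CM markers (right). Well C8 of Mouse_25 lies at the top of both panels, with the highest fibroblast marker count (27946) and a CM marker level of 646 CPM.

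Small counts of the leading chains were also tallied by the index sequences on the plate of C8. In this plate each well has its own pair of indices, and no pair was used by more than 1 well. Of the 24 other wells of plate GL-9122b that share an index with C8, 9 held 1 to 3 counts of Col3a1, against 1 of the 38 wells that share none. The same counts were 7 of 24 and 3 of 38 for Col1a2, 7 of 24 and 4 of 38 for Col1a1 and 5 of 24 and 2 of 38 for Col6a2. Over 3 counts of Col3a1 were held by 3 of the 24 wells and 6 of the 38. Most wells that share an index with C8 lie in rows A to D of the plate. Index and plate position therefore cannot be told apart, and the source of the small counts was not tested.

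Col4a2, which pairs with Col4a1 in the common type IV molecule, had the most counts of all chains (33925), was found in 215 wells (91.9%) and had 3.05% of its counts in its highest well. Col4a1 had 25080 counts in 217 wells (92.7%) with 4.57% in the highest, and Col4a5, an X-linked chain of another type IV molecule, 8395 counts in 180 wells (76.9%) with 2.97% in the highest. Per kb of exon, the level over all cells was 31.4 CPM per kb for Col4a2, 20.6 for Col4a1 and 7.65 for Col4a5, beside 10.8 for Col3a1, of which C8 holds 56.7%. All 3 were found together in 176 wells, and 11 wells held none of them. The wells without a count were mostly those with few genes for Col4a1 (13 of 17 under 1000 genes) and Col4a2 (12 of 19), and less so for Col4a5 (15 of 54).

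Type IV counts were also present where markers of other cells were not. The 24 fibroblast, endothelial and mural markers without Acta2 were all at 0 in 48 wells, 10 of them under 1000 genes. Col4a2 held a count in 38 of these 48 wells (median 136 CPM, highest 569), Col4a1 in 37 (median 46.1, highest 574) and Col4a5 in 30 (median 16.7, highest 352). Of the same 48 wells, 17 held a count of any of the other 35 chains, with at most 115 counts in a well.

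In the sums of cells by mouse and brightness, Col4a2 stood at 191 and 114 CPM in control animals Mouse_26 and Mouse_73, at 260 and 182 CPM in the homozygous bright cells of Mouse_25 and Mouse_116, and at 252 and 205 CPM in their dim cells. Without C8 the bright cells of Mouse_25 were at 215 CPM. The cells of Mouse_72 lay within the range of these values, at 203 CPM labelled bright and 214 CPM labelled dim. The controls and the homozygous bright cells overlapped, both dim sums lay above both controls in plain CPM but not after scaling between libraries (trimmed mean of M-values, TMM), and control animal Mouse_73, with the fewest cells, gave the lowest of the 8 values. Exact Poisson intervals were narrow, for example 104 to 125 CPM in control animal Mouse_73, and they cover counting error only, as the reads carry no molecular identifiers.

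Col4a1 was at 136 and 230 CPM in the controls, 130 and 121 CPM in homozygous bright cells and 172 and 189 CPM in homozygous dim cells. In Mouse_72 it was at 145 CPM in cells labelled bright and 180 CPM in those labelled dim. The homozygous bright cells gave the lowest values of the 8 and control animal Mouse_73 the highest. In both homozygous mice the dim cells exceeded the bright ones, and in Mouse_72 the cells labelled dim, those with more of the human BAG3 feature, exceeded those labelled bright. A single well weighed on the controls, since B10 held 42.9% of the Col4a1 counts of Mouse_26, whose level was 83.3 CPM without it.

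Col4a5 differed least between the sums. It was at 45.7 and 53.0 CPM in the controls, 47.3 and 53.2 CPM in homozygous bright cells, 54.7 and 58.3 CPM in homozygous dim cells, and 37.2 and 51.9 CPM in the cells of Mouse_72 labelled bright and dim. In plain CPM both homozygous dim sums lay above the bright and the control sums, whereas after TMM scaling they lay between the controls and the bright sums below them. The share of wells with a Col4a5 count ran from 55.6% in control animal Mouse_73 (exact 95% interval 21.2 to 86.3%) to 94.4% in the dim cells of Mouse_25 (72.7 to 99.9%). After each cell was thinned to 100000 counts, leaving out 0 to 7 shallower wells per sum, the share ran from 50% to 88.9%, with the same sums at both ends. For Col4a1 and Col4a2 the share was 83.3% or more in every sum before thinning and 87.5% or more at 100000 counts. At 50000 counts Col4a5 was found in 50% to 77.8% of the wells of a sum, Col4a2 in 75% in control animal Mouse_73 and Col4a1 in 75% in the cells of Mouse_72 labelled dim, each the lowest of the 8 sums.

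**Figure D4:**
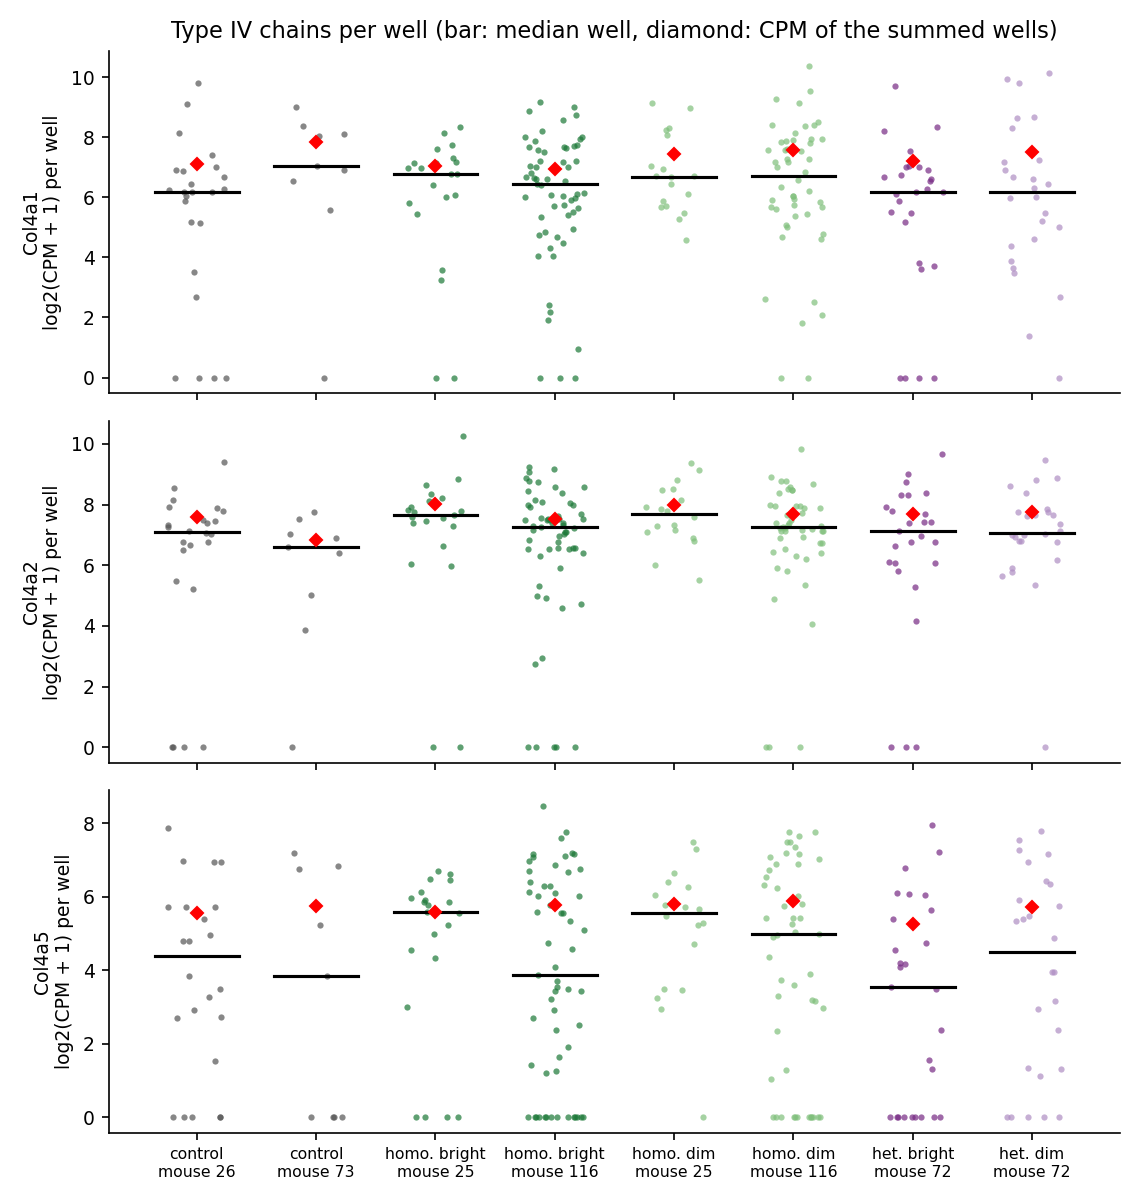
Level of Col4a1, Col4a2 and Col4a5 in each well, as log2(CPM + 1) on the y axis, by mouse and brightness class on the x axis (24, 9, 21, 59, 18, 50, 27 and 26 wells from left to right); bars are the median well and red diamonds the CPM of the summed wells. Most wells hold each chain in all 8 sums, and the wells at 0 are most frequent for Col4a5.

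The genes of the head-to-head pair were found in the same cells but in a ratio that varied between them. Of the 191 wells with at least 10 counts of Col4a1, 96.9% had at least 10 of Col4a2, and of the 207 with Col4a2 89.4% had Col4a1. In the 185 wells with both, the ratio of Col4a1 to Col4a2 per kb had a median of 0.591, quartiles of 0.281 and 1.08 and a range of 0.0698 to 6.95. By sum its median ran from 0.392 in control animal Mouse_26 to 1.09 in control animal Mouse_73, a span that contained the medians of all transgenic sums. Over the 219 wells with at least 1000 genes, log2(CPM + 1) of the pair correlated with Pearson's r 0.207 and Spearman's rho 0.282, and Col4a5 with either of them at r 0.126 and 0.118. These values describe wells that share mice, plates and depth, and they carry no test.

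The same measure was computed between the chains and the marker sums. Over these 219 wells Col4a1 had r 0.485 with the endothelial markers and 0.242 with the fibroblast markers, Col4a2 0.257 and 0.262, and Col4a5 -0.00262 and 0.0322. By contrast, Col1a2 had r 0.686 and Col3a1 0.637 with the fibroblast markers, r 0.411 and 0.317 with the endothelial markers, and Col1a2 and Col3a1 had r 0.798 with each other. Without C8 these were 0.661 and 0.608 with the fibroblast markers, 0.392 and 0.292 with the endothelial markers and 0.776 with each other.

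The remaining type IV chains were rare. Col4a4 held 323 counts in 18 wells, of which 149 came from 1 dim cell of Mouse_25. Col4a3 held 42 counts in 6 wells, and Col4a6, the neighbour of Col4a5 on the X chromosome, 15 counts in 3 wells.

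Among the fibril-forming chains, Col3a1, the only chain of type III fibres, held 17376 counts in 58 wells, and C8 held 9847 of them. By sum it was at 45.0 and 9.28 CPM in control animals Mouse_26 and Mouse_73, 577 and 10.1 CPM in the homozygous bright and 24.8 and 58.1 CPM in the homozygous dim cells of Mouse_25 and Mouse_116, and 184 and 9.08 CPM in the cells of Mouse_72 labelled bright and dim. The sum of Mouse_25 that holds C8 was the highest, and it stood at 58.8 CPM without that well. Well B10 had the same weight in control animal Mouse_26, whose level was 3.93 CPM without it. In control animal Mouse_73 a single well held all 38 counts.

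Col1a1 and Col1a2, the chains of type I fibres, gave a like picture. Col1a2 had 10027 counts in 52 wells and was at 11.4 and 7.08 CPM in the controls, 372 and 15.7 CPM in homozygous bright, 3.70 and 28.0 CPM in homozygous dim cells and 64.5 and 12.8 CPM in Mouse_72. Col1a1 had 7987 counts in 43 wells and was at 9.65 and 0 CPM in the controls, 255 and 11.4 CPM in homozygous bright, 0.381 and 40.2 CPM in homozygous dim cells and 80.8 and 0.222 CPM in Mouse_72. A count of 0 in control animal Mouse_73 allows up to 0.732 CPM, as 3 counts of its total. Without their highest well the bright sum of Mouse_25 stood at 57.0 CPM for Col1a2 and 42.4 CPM for Col1a1, and the values of control animal Mouse_26 at 0.164 and 0.601 CPM. In the 11 wells with at least 10 counts of both, the per kb ratio of Col1a1 to Col1a2 had a median of 2.01, with a range of 1.17 to 6.79, and the median was 2.36 in the 10 without C8. The lengths used, merged over all annotated exons, were 6.56 kb for Col1a1 and 12.4 kb for Col1a2. The ratio rests on these lengths and was not measured per transcript. These 11 wells were 78.6% of the 14 with Col1a1 and 45.8% of the 24 with Col1a2.

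The type V chains regulate the diameter of type I fibrils. Col5a3 had 1977 counts, of which C8 held 89.6%, and its level in the bright cells of Mouse_25 was 94.1 CPM with C8 and 0.553 CPM without it. In the other 7 sums Col5a3 was between 0 and 4.40 CPM. Col5a2 had 1617 counts in 28 wells with 54.1% in C8, and Col5a1 937 counts in 23 wells with 29.0% in C8. Of the others in the class, Col27a1 had 380 counts with 83.9% in C8, whereas Col11a2 had 46 and Col24a1 13 counts, none of them highest in C8.

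Type VI chains were concentrated in the same well. Col6a2 had 5418 counts in 42 wells, Col6a1 3856 in 30 and Col6a3 3055 in 22, and C8 held 67.1%, 66.1% and 81.4% of them. In the bright cells of Mouse_25 they were at 198, 139 and 133 CPM, and at 5.70, 4.59 and 1.61 CPM without C8. In the other 7 sums Col6a2 ran from 0.762 to 29.8 CPM, Col6a1 from 2.09 to 16.5 CPM and Col6a3 from 0 to 12.6 CPM, and the dim cells of Mouse_116 had the highest of these values for Col6a2 and Col6a1. In the 12 wells with at least 10 counts of Col6a1 and Col6a2, which form a molecule together, their ratio per kb had a median of 1.85 and a range of 0.329 to 11.1, and the median was 1.99 in the 11 without C8. Col6a6 had 289 counts in 3 wells, 95.8% of them in C8, and Col6a4 had 1 count.

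**Figure D5:**
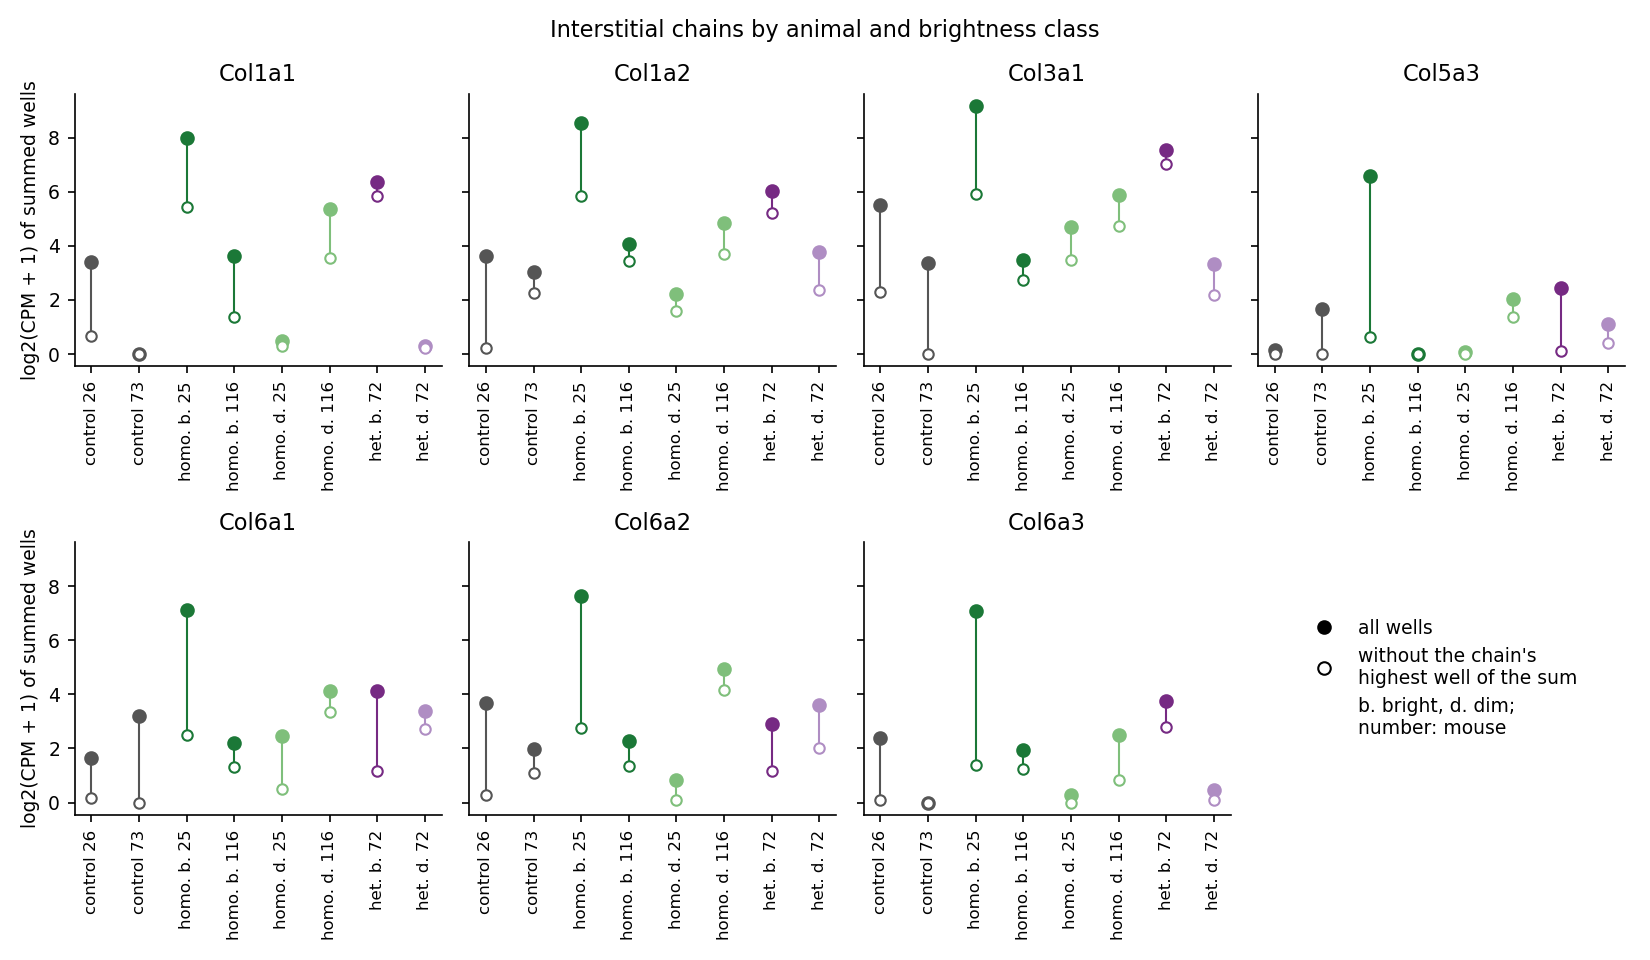
Level of 7 fibril-forming and type VI chains as log2(CPM + 1) on the y axis in each sum of wells by mouse and brightness class on the x axis; filled points use all wells and open points leave out the chain's highest well of that sum. The bright sum of Mouse_25 is the highest filled point in each panel, and the distance to its open point is the part held by 1 well.

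The multiplexins were neither spread nor concentrated. Col15a1 had 1601 counts in 42 wells with 23.2% in C8. Col18a1, the precursor of endostatin, had 1083 counts in 31 wells with 11.7% in well B1 of Mouse_72, and only 3 counts in the bright cells of Mouse_25. Of the rest, Col14a1, a fibril-associated chain, had 535 counts in 17 wells, 176 of them in well H3 of Mouse_72, Col26a1 had 527 with 95.6% in C8, and Col8a1, a network chain of vessel walls, had 137 with 98 in well B10. In all, 15 of the 38 chains had their highest count in C8, which held a count of 17.

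Whether the chains differ between homozygous bright cells and control cells was tested with edgeR's quasi-likelihood test on the counts summed per mouse, over all 12203 genes that passed its filter on low counts, with Benjamini-Hochberg adjustment. Of the 38 chains 16 passed the filter, a filter that chains high in 1 group pass more readily. No chain passed an adjusted p of 0.05, a threshold that 0.0164% of all genes passed. At an unadjusted p under 0.05 there was 1 of 16, against 6.55% of all genes. DESeq2 on the same sums called 1 chain (Col1a2, adjusted p = 0.0178), against 1.01% of the genes it gave an adjusted p, and 4 of 16 had an unadjusted p under 0.05, against 8.31%. Without C8 DESeq2 called none, against 0.523%, and 3 of 16 had an unadjusted p under 0.05, against 7.84%. With all wells, limma on mean log2(CPM + 1) called none.

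The fitted log2 fold changes of the 16 chains had a median of 2.79, against 0.11 over all genes tested, and 12 were above and 4 below 0. Within plate GL-9122b (Mouse_25 against Mouse_26) the median log2 ratio of the chains was 3.56, and among the plates named GL9989 (Mouse_116 against Mouse_73) it was -0.39, so that the pooled value did not hold within both sets of libraries. Without C8 the median was -0.23, and the lowest unadjusted p of a chain in edgeR was 0.0621 (Col4a1). Without the well with most collagen counts of each sum, which takes C8 from Mouse_25 and B10 from Mouse_26, the median of 15 chains tested was 1.26, none passed the adjusted threshold, and 3 had an unadjusted p under 0.05 (Col1a1, Col6a1 and Col6a3), against 0.0167% and 7.51% of the 11951 genes tested. The sums did not overlap between the groups for 1 chain in the higher direction (24.3% of all genes did so) and for 4 in the lower direction (14.8%).

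Col1a2 was the chain with an unadjusted p under 0.05. It was at 372 and 15.7 CPM in the bright cells against 11.4 and 7.08 CPM in the controls, with a log2 fold change of 4.11 (SE 1.37, p = 0.0228, adjusted p = 0.663), and without C8 the log2 fold change was 1.72 (SE 0.83, adjusted p = 0.889). The type IV chains had smaller fitted differences, as Col4a1 had a log2 fold change of -0.90 (SE 0.41, p = 0.0687), Col4a2 of 0.24 (SE 0.37) and Col4a5 of -0.31 (SE 0.43), with adjusted p of 0.827, 0.966 and 0.959. Both bright sums lay below both controls for Col4a1, by a small margin against control animal Mouse_26 that rests on well B10, without which that animal was at 83.3 CPM and below both bright sums, and also for Col4a4 and, after scaling, Col4a5 and Col18a1. The interstitial chains had large fold changes with large errors, from 3.19 (SE 1.64) for Col3a1 to 5.26 (SE 3.10) for Col5a3, and adjusted p of 0.779 to 0.879 over Col1a1, Col3a1, Col5a3, Col6a1, Col6a2 and Col6a3. Without C8 the signs of Col5a3, Col6a1, Col6a2 and Col6a3 turned, at -2.33, -0.67, -0.87 and -0.19. Without the well with most collagen counts of each sum no sign turned among the chains named here, with Col1a2 at 3.83 (SE 1.72), Col1a1 at 5.61 (SE 2.09), Col3a1 at 3.69 (SE 1.81), Col6a1 at 4.93 (SE 1.92), Col6a2 at 1.21 (SE 1.81) and Col6a3 at 4.71 (SE 1.67), adjusted p of 0.541 to 0.948, and Col5a3 not tested. The direction of the type VI chains thus depended on whether 1 well was left out of Mouse_25 alone or of every sum.

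Leaving out the bright sum of Mouse_116, so that Mouse_25 with C8 stood alone and was taken to vary like the controls, gave 7 of 24 chains past the threshold, against 41 of 13291 genes (0.308%), all higher (Col1a1, Col1a2, Col3a1, Col5a3, Col6a1, Col6a2 and Col6a3). With the set of libraries as a block, Col1a1 passed (log2 fold change 4.99, adjusted p = 0.0151), as did 0.0819% of all genes, and with no filter on counts 8 of 34 chains and 0.787% of all genes did. Under each of these alternatives no chain passed once C8 was left out as well. Few of all genes passed there either, so this is not a result about the chains.

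In homozygous dim cells against control cells, 17 chains were tested among 12195 genes and none passed the adjusted threshold, which 0% of all genes passed. At an unadjusted p under 0.05 there was 1 of 17, against 6.22% of all genes, and neither DESeq2 nor limma called a chain. DESeq2 called 0.522% of genes, and 0 of 17 chains had an unadjusted p under 0.05 in it, against 7.64%. The median log2 fold change was 0.33, against 0.10 over all genes, with 11 chains above and 6 below 0. Within the plate of Mouse_25 and Mouse_26 the median log2 ratio was -0.47 and among the GL9989 plates 1.57, so the pooled direction did not hold in both. Without the well with most collagen counts of each sum the median of 13 chains was 1.48, and none passed, against 0% of the 11857 genes tested. The sums did not overlap for 2 chains in the higher direction (23.8% of all genes did so) and for 0 in the lower (14.2%).

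The chain with an unadjusted p under 0.05 was Col4a3 (p = 0.0333, adjusted p = 0.737), which rests on few reads and passed the filter on low counts only through the dim cells. It was at 0 in both controls and at 0.598 and 0.610 CPM in the dim cells, where 11 and 21 counts each came from 1 well. Against a floor of 3 counts over both controls it was at least 4.78-fold higher, counting error only. Col15a1 was the other chain whose sums did not overlap, at 7.78 and 15.7 CPM against 5.36 and 2.20 CPM (log2 fold change 1.34, SE 1.14). Col4a1, Col4a2 and Col4a5 had log2 fold changes of -0.34 (SE 0.39), 0.31 (SE 0.37) and -0.10 (SE 0.42), and Col1a1, Col1a2 and Col3a1 of 1.76 (SE 2.16), 0.47 (SE 1.12) and 0.33 (SE 0.81). Without control animal Mouse_26, so that Mouse_73 stood alone and was taken to vary like the dim sums, 827 genes (5.89%) passed the threshold, and among them Col18a1 (log2 fold change -2.56, adjusted p = 0.0437) and Col23a1 (-7.30, adjusted p = 0.0390). Col23a1, a transmembrane chain, was not among the 17 and held 72 of its 92 counts in 1 well of control animal Mouse_73.

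Bright and dim cells of the same 2 homozygous mice were compared to ask whether the chains follow the brightness of the transgene. Of 21 chains tested among 13439 genes none passed the adjusted threshold, which 0% of all genes passed, and 2 had an unadjusted p under 0.05, against 4.12% of all genes. DESeq2, limma and the fit with the mouse as a replicate block called none. DESeq2 called 0.689% of genes, and 5 of 21 chains had an unadjusted p under 0.05 in it, against 5.86%, whereas without C8 it called 0 chains and 0.558% of genes, and 2 of 20 chains had such a p, against 5.19%. The median log2 fold change was 1.57, against -0.01 over all genes, and it was 4.52 within Mouse_25 and -1.49 within Mouse_116. Without C8 it was -0.22, and without the well with most collagen counts of each sum -0.34. The sums did not overlap for 1 chain in the higher direction (15.1% of all genes did so) and for 4 in the lower (16.0%). These comparisons share the homozygous sums with those against the controls, and so are not independent of them.

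Col4a1 had an unadjusted p under 0.05, at 130 and 121 CPM in bright against 172 and 189 CPM in dim cells, a log2 fold change of -0.55 (SE 0.21, p = 0.0395, adjusted p = 0.999), and -0.56 without C8. The endothelial markers ran the same way, at 135 and 113 CPM in bright against 228 and 244 CPM in dim cells. Their part in the Col4a1 difference was not tested. Col12a1, a fibril-associated chain, had the other unadjusted p under 0.05 (p = 0.0205, adjusted p = 0.999), with 52 counts in 3 bright wells of Mouse_25, 21 counts in 2 bright wells of Mouse_116 and 0 in the dim cells of both. It passed the filter on low counts only through the bright cells. Against a floor of 3 counts over both dim sums it was at least 21.6-fold higher, a bound that covers counting error only. Col4a2 and Col4a5 had log2 fold changes of -0.08 (SE 0.29) and -0.20 (SE 0.24). The interstitial chains differed in direction between the mice: Col3a1 was at 577 against 24.8 CPM in Mouse_25 and at 10.1 against 58.1 CPM in Mouse_116, and Col1a1 at 255 against 0.381 CPM and at 11.4 against 40.2 CPM. Without C8, Col3a1 was at -0.22, Col6a1 at -1.35, Col6a2 at -1.64, Col6a3 at -0.11 and Col5a3 at -2.46 on the log2 scale, whereas Col1a1 and Col1a2 stayed above 0 at 0.46 (SE 1.56) and 1.24 (SE 1.00). Without the well with most collagen counts of each sum, Col3a1 was at 0.91 (SE 1.02), Col1a1 at 2.06 (SE 1.76) and Col1a2 at 2.29 (SE 1.08), and the signs of Col6a1, Col6a2, Col6a3 and Col5a3 turned there too. Leaving out the bright sum of Mouse_116 gave 3 of 26 chains past the threshold (Col3a1, Col6a1 and Col26a1), against 0.509% of all genes, and no filter on counts gave 11 of 37, against 0.992%, whereas both gave none once C8 was left out as well.

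Mouse_72 had no second animal, and its values carry counting intervals and no test. The cells labelled bright had 449 CPM of the 35 other chains and those labelled dim 74.9 CPM, while Col4a1, Col4a2 and Col4a5 differed little (log2 of bright over dim -0.30, -0.07 and -0.48). Of the cells labelled bright, F4, B1 and H3 of plate GL9989-1 held 1980, 1843 and 1814 counts of the other chains, with 1000, 1146 and 741 counts of fibroblast markers. Col3a1 was at 184 CPM (exact 95% Poisson interval 177 to 192) in cells labelled bright and 9.08 CPM (7.55 to 10.8) in those labelled dim.

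The level of the 35 other chains stood beside that of the fibroblast markers in the sums. It was 107 and 102 CPM in control animals Mouse_26 and Mouse_73, 1940 and 61.3 CPM in homozygous bright and 65.0 and 227 CPM in homozygous dim cells of Mouse_25 and Mouse_116. Without the highest well of each, the bright cells of Mouse_25 were at 203 CPM and control animal Mouse_26 at 11.4 CPM. The fibroblast markers stood at 125 and 73.5, 1660 and 71.0, and 60.8 and 144 CPM in the same sums, and in Mouse_72 at 242 CPM in the cells labelled bright and 30.9 CPM in those labelled dim. Without C8 the fibroblast markers of the bright cells of Mouse_25 stood at 191 CPM, and without B10 those of Mouse_26 at 32.0 CPM. Using all wells, the 3 sums with the highest chain level were also those with the highest fibroblast marker level. The endothelial markers lay between 101 and 255 CPM over all 8. They were at 101 and 242 CPM in Mouse_26 and Mouse_73, 135 and 113 CPM in homozygous bright and 228 and 244 CPM in homozygous dim cells. In Mouse_72 they were at 177 CPM in cells labelled bright and 255 CPM in those labelled dim. In each transgenic mouse they were thus higher in dim cells, as Col4a1 was. All 9 fibroblast markers were detected in 5 of the 8 sums, and 5 or 6 in the others. The part of the marker levels in the comparisons was not tested.

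The enzymes and chaperones that modify, fold and process collagen were counted in the same sums. Of 32 genes listed for collagen synthesis and processing, 23 were tested against control in bright cells, 22 in dim cells and 25 between bright and dim cells, and none passed the adjusted threshold in edgeR, DESeq2 or limma. Unadjusted p under 0.05 were found for 1, 0 and 2 of them, all higher, beside 6.55%, 6.22% and 4.12% of all genes, and the median log2 fold changes were 0.86, 0.18 and 0.33, beside 0.11, 0.10 and -0.01 over all genes. Without C8 the median was 0.16 in bright cells against control and 0.030 against dim cells. Those with the highest mean level were Sparc, a collagen-binding glycoprotein, P4hb, a subunit of prolyl 4-hydroxylase, and Plod1, a lysyl hydroxylase, with log2 fold changes of 0.10 (SE 0.90), -0.48 (SE 0.43) and 0.86 (SE 0.64) in bright cells against control, and -0.79, -0.63 and 0.12 without C8. Adamts2, which removes the amino-terminal propeptide of fibrillar procollagen, had an unadjusted p under 0.05 in bright cells against control (log2 fold change 6.86, SE 2.21, adjusted p = 0.663) and against dim cells (4.08, SE 1.45, adjusted p = 0.999), and without C8 these were 6.17 and 3.39. It passed the filter against control only through the bright cells, since the controls held 2 counts of it and the bright cells 430. The ratio of summed CPM was 85.7 (exact 95% counting interval 23.6 to 710), or 53.2 (14.6 to 441) without C8. The 430 counts lay in 8 wells, or 7 without C8, and these intervals cover counting error only. After TMM scaling the bright sums stood at 18.4 CPM in Mouse_25 and 1.16 CPM in Mouse_116. Adamts14, a related propeptidase at 0 in both dim sums, passed the filter only through the bright cells, was at least 17.5-fold higher in them by counting error alone (adjusted p = 0.999) and failed the filter on low counts without C8.

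Of 10 genes for collagen breakdown, 7 were tested in each comparison, none passed the adjusted threshold in edgeR, DESeq2 or limma, and 1 had an unadjusted p under 0.05. This was Mmp2, a gelatinase, in bright against dim cells (log2 fold change 5.03, SE 1.71, adjusted p = 0.999), where 4.12% of all genes had such a p, and it was 1.48 without C8. Against control Mmp2 was at 2.83 (SE 1.45) in bright cells, or -0.72 without C8. In dim cells against control it was at -2.21 (SE 1.09), with both dim sums below both controls. Timp2 and Timp3, inhibitors of these proteases, were also among the highest, with log2 fold changes of 0.62 (SE 0.55) and -1.05 (SE 0.92) in bright cells against control (0.24 and -0.97 without C8), and Timp4 among the highest in the dim comparison at 1.5 (SE 2.02). Of 9 genes for collagen receptors 4 were tested in each comparison and none passed in edgeR, DESeq2 or limma. Itgb1, the shared beta chain of collagen integrins, was the highest, with log2 fold changes of 0.13 (SE 0.29) in bright and 0.47 (SE 0.30) in dim cells against control. Itga1, the alpha chain of a receptor that binds type IV collagen, had an unadjusted p under 0.05 in bright against dim cells, with a log2 fold change of -1.28 (SE 0.37, adjusted p = 0.999), and -1.22 without C8. Ddr1, a collagen-binding tyrosine kinase, had log2 fold changes of 0.76 (SE 1.48), 0.58 (SE 1.46) and 0.15 (SE 0.42) in the comparisons of bright with control, dim with control and bright with dim cells.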

How the data were processed

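Single cardiomyocytes were sequenced by SMART-seq2 (Nextera libraries, no molecular identifiers). The deposited matrix holds whole-number counts per gene and well, which the authors made with STAR's gene counting. The genome build, annotation and strand setting are not given in the sources used here, so overlapping and antisense genes could not be told apart.

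Wells were grouped by the labels. Counts were summed per mouse and brightness class, giving 8 sums, and tested with edgeR 4.0.16 (filterByExpr, TMM scaling, quasi-likelihood fit) in R 4.3.3. Benjamini-Hochberg adjustment ran over all genes tested, with a threshold of 0.05. Against control, 2 mice were set against 2, and p-values measure the spread between these mice. Bright against dim set sums of the same 2 mice against each other unpaired, with the mouse as a replicate block as an alternative. Those p-values treat the sums as independent although they come from 2 animals. DESeq2 1.42.0 on the sums and limma 3.58.1 on mean log2(CPM + 1) per well were alternatives. SEs of log2 fold changes were derived from the F statistic. Other values used Python 3.11.15 and scipy 1.17.1. Exon lengths were the merged exons of all annotated transcripts of a gene in GENCODE M21, where all 38 chains matched by symbol. Promoter windows, found for 31 chains, came from RefSeq. Each fit was also run on simulated counts with a fixed, low spread between sums. This checks the code only, and not how the fits do on chains as variable as these.

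The chains described in full were the 10 with the most counts, those called spread, and those with an unadjusted p under 0.05. Of the gene lists, genes with an unadjusted p under 0.05 and the 3 highest by mean CPM were named. The members, lists and markers were chosen with earlier results of these data known. The bright and dim sums of a homozygous mouse come from the same animal, by the labels, and their deviations from the group means correlated with Pearson's r 0.0768 over 13439 genes. Mouse_72 entered no test, as it was the only heterozygous animal.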

Additional observations from a re-analysis of the deposited data

Results flagged for a closer look

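The heterozygous cells of Mouse_72 entered no comparison. For 3 of the 10 chains with the most counts, both of its sums lay above both control sums in plain CPM, as they did for 25.5% of the 12979 features with at least 100 counts, so that this count is not a result about these chains. These were Col4a2, with 203 CPM as the lower of the sums of Mouse_72 against 191 and 114 CPM in the controls, Col1a2, with 12.8 CPM against 11.4 and 7.08 CPM, and Col6a1, with 9.53 CPM against 2.09 and 8.30 CPM. These differences were not tested, since there was 1 animal.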

How the results depend on the processing

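Leaving out well C8, alone or with another alternative, was chosen after seeing the data, and the other alternatives were not. Without C8, 5 chains were spread and 17 concentrated, and 31 wells held 50% of the collagen counts. Leaving out each mouse in turn gave 3 to 5 spread chains, 16 to 30 concentrated chains and 4 to 24 wells.

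For homozygous bright cells against control, genes past the threshold numbered 106 with DESeq2, 163 with no filter on counts, 4 with limma, 10 with the library set as a block and 0 to 41 with 1 sum left out. Chains past it numbered 1 with DESeq2, 8 with no filter, 1 with the block and 0 to 7 with 1 sum left out. The median log2 fold change of the chains was -0.23 without C8 and -0.92 to 4.69 with 1 sum left out. Directions turned for Col4a5 with library size (0.029) and limma (0.60), for Col6a2 with limma (-0.060) and without C8 (-0.87), and for Col6a1 (-0.67), Col6a3 (-0.19) and Col5a3 (-2.33) without C8. With 1 sum left out Col4a2 ran from -0.050 to 0.56, Col3a1 from -1.70 to 4.63, Col6a2 from -1.21 to 4.74 and Col6a1 from -0.91 to 4.90. Without C8 and with DESeq2, no filter, the block or the bright sum of Mouse_25 alone, 55, 83, 11 and 8 genes and 0 chains passed. In that order Col6a2 was at -0.90, -0.85, -0.63 and -0.56, Col6a1 at -0.75, -0.62, -0.34 and -0.46, and Col5a3 at -2.47, -2.28, -2.68 and -1.30, while Col6a3 turned except with the block (-0.17, -0.17 and -0.57) and Col3a1 with the block (-0.037). The median of the chains was -0.27 with DESeq2 and -0.29 with the block. Library size as the scaling moved the median of all genes to 0.41, and to 0.38 for dim cells against control.

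For homozygous dim cells against control, genes past the threshold numbered 55 with DESeq2, 58 with no filter, 1 with limma, 12 with the library set as a block, 2 with bright and dim cells summed and 3 to 827 with 1 sum left out, the highest without control Mouse_26. Chains past it numbered 0 to 2 with 1 sum left out. The median of the chains was 1.98 with bright and dim cells summed and -1.44 to 1.79 with 1 sum left out. Directions turned with limma for Col4a1 (0.57), Col1a2 (-0.010), Col4a5 (1.01), Col6a2 (-0.36), Col6a3 (0.093) and Col5a3 (-0.085), with the block for Col1a2 (-0.12), Col6a2 (-0.59), Col6a3 (0.17) and Col5a3 (-0.38), with library size for Col4a5 (0.20) and Col6a3 (0.17), and for Col6a3 with the cells summed (3.74). With 1 sum left out Col4a1 ran from -0.71 to 0.18, Col3a1 from -0.36 to 1.79, Col1a2 from -1.57 to 1.33, Col4a5 from -0.26 to 0.083, Col1a1 from -3.83 to 11.54, Col6a2 from -3.47 to 1.99, Col6a1 from -0.50 to 2.08, Col6a3 from -3.42 to 8.48 and Col5a3 from -0.86 to 3.64.

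For bright against dim cells, genes past the threshold numbered 89 with DESeq2, 217 with no filter, 2 with limma and 0 to 74 with 1 sum left out, and chains 11 with no filter and 0 to 3 with 1 sum left out. With the mouse as a replicate block 0 genes and 0 chains passed, the median of the chains was 1.32, and no call changed. The median ran from -1.15 to 5.69 with 1 sum left out. Directions turned without C8 for Col3a1 (-0.22), Col6a2 (-1.64), Col6a1 (-1.35), Col6a3 (-0.11) and Col5a3 (-2.46), and without the well with most collagen counts of each sum for Col6a2 (-1.74), Col6a1 (-1.14), Col6a3 (-0.59) and Col5a3 (-1.47). Without C8 and with DESeq2, no filter, the mouse as a replicate block or the bright sum of Mouse_25 alone, 72, 57, 0 and 1 genes and 0 chains passed. In that order Col6a2 was at -1.63, -1.65, -0.20 and -1.34, Col6a1 at -1.35, -1.36, -1.12 and -1.13, and Col5a3 at -2.45, -2.47, -2.38 and -1.43, while Col3a1 turned in the first 3 (-0.22, -0.23 and -0.65) and Col6a3 except with the block (-0.10, -0.12 and -0.52). With 1 sum left out Col4a2 ran from -0.42 to 0.20, Col3a1 from -2.10 to 3.83, Col1a2 from -0.064 to 5.69, Col1a1 from -0.88 to 8.41, Col6a2 from -2.03 to 7.02, Col6a1 from -1.62 to 3.96 and Col5a3 from -8.63 to 9.62.

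Over all alternatives, 331 of 444 values of the 30 log2 fold changes kept their direction and side of the threshold, 88 changed direction and 25 passed a threshold not passed in edgeR. Of 48 shares of wells after thinning, 40 moved by less than their interval. Unless the left-out samples show it, the cause of a change was not tested. With 2 mice a group, the large SEs of the interstitial chains limit what could be called.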
